A study of Homo sapiens with 6 samples.

Results

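The genes described here are the forkhead transcription factors FOXO1, FOXO3 and FOXO4 and 7 genes that FOXO proteins are known to induce: TSC22D3, PIK3IP1, TXNIP, GADD45A, CCNG2, IRS2 and BCL6. They were taken by name from the deposited tables. All 10 had a row, among 18336 gene names in all, and the choice used no measured value of its own, although earlier results of these data were known when it was made. All libraries came from HUVECs, primary endothelial cells that line the human umbilical vein, bought from a supplier. A group of 3 libraries was made from cells that received miR-483, a microRNA encoded within the IGF2 gene, and another group of 3 from cells that received 8OH-G miR-483, a form whose name stands for oxidised guanine. Both were introduced with Lipofectamine RNAi max, and cells were lysed for total RNA on day 2. The scramble control named in the protocol was not analysed here, so a value that is lower in 1 group may equally be raised in the other. The labels name neither donors nor separate cultures. Each p-value therefore reflects no more than the scatter among these libraries, which may be technical.

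FOXO factors act in the nucleus when growth factor signalling is weak. Insulin-type receptors activate PI3-kinase and AKT, AKT phosphorylates FOXO proteins, and the phosphorylated proteins are bound by 14-3-3 proteins and held in the cytoplasm, so FOXO activity is set largely after the mRNA is made. In endothelium FOXO1 is known for restraining metabolism and proliferation and keeping vessel cells quiescent. Among the target genes, TSC22D3 (GILZ), CCNG2 and BCL6 act against inflammatory signalling, the cell cycle and transcription of growth genes, respectively, PIK3IP1 and IRS2 feed back on PI3-kinase, TXNIP binds thioredoxin and limits glucose uptake, and GADD45A responds to DNA damage and other stress.

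The letters GTAAACA form the core that FOXO proteins bind. They were searched on both strands in RefSeq promoter windows (build GRCh38.p14, 250 bases before to 50 bases after each annotated start), and 3.42% of all 35116 windows held them. Of the 10 genes, 9 had at least 1 window, 18 windows in all, and GADD45A had none. FOXO4, TSC22D3, PIK3IP1 and TXNIP each had 1 window with the letters, and these were also the 4 tested genes of the set with the lowest fold changes. FOXO1, FOXO3, CCNG2, IRS2 and BCL6 had no such window. Genes with several starts have more windows in which a match can occur: TSC22D3 had 4, PIK3IP1 and TXNIP 2 each and FOXO4 1, while FOXO3 had 4 without a match. The 4 windows are shown because they hold the letters, whatever the fold change of the gene. They are given 5′ to 3′ on the strand of the gene. The match, GTAAACA or its reverse complement TGTTTAC, is in capitals.

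TSC22D3, chrX:107717013-107717312, minus strand: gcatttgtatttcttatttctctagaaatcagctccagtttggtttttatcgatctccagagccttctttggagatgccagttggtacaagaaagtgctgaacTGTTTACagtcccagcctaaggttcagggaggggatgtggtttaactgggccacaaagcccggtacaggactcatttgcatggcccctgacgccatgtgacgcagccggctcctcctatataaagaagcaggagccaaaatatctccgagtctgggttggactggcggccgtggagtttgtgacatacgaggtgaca

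PIK3IP1, chr22:31292439-31292738, minus strand: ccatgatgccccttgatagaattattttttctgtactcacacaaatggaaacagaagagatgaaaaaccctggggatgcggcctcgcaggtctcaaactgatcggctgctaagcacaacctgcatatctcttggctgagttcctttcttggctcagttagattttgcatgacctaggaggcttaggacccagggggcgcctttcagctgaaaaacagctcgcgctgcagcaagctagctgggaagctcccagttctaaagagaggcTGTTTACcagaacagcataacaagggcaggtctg

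TXNIP, chr1:145996530-145996829, minus strand: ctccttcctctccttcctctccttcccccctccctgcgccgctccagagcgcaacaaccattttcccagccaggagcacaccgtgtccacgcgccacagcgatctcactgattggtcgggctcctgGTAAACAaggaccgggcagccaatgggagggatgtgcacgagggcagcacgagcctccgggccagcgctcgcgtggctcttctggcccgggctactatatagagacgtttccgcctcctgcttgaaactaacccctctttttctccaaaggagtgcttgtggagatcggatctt

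FOXO4, chrX:71095601-71095900, plus strand: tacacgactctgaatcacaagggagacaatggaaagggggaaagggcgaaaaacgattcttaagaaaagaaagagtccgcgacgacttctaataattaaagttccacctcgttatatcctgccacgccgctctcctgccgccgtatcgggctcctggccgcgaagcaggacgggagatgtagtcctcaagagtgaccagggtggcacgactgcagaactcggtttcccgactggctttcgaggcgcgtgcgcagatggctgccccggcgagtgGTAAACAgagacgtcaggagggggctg

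The match began 147 bases upstream of the start in TSC22D3 and 124 bases upstream in TXNIP, and 16 and 23 bases downstream of it in PIK3IP1 and FOXO4. In TSC22D3 it lay at 1 of 4 annotated starts, and the files do not say which start was in use. A related element, CAAAACA, occurred in 4.92% of all windows and, in this set, only in that of IRS2, 40 bases upstream of its start. The E-box CACGTG, which is bound by MYC and by the glucose-sensing factor MondoA, occurred in 7.26% of windows and here only in that of CCNG2, 30 bases upstream. Only these exact letters were searched. Variant elements of MYC or MondoA, in TXNIP or any other gene, were not looked for, so their absence cannot be read from this. These matches are descriptions of letters and not evidence of binding.

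The deposited values are decimals of an unnamed unit, taken as FPKM (fragments per kilobase of gene, scaled to library size) because their totals exceed the fixed sum that CPM or TPM keep. The totals were 1396537 to 1440422 in the miR-483 libraries and 1598260 to 1687283 in the 8OH-G miR-483 libraries, so they differed by group. Mitochondrial genes held 71.3% to 76.6% of the total of each library. The part of this in the scaling was not tested. The depth in reads is unknown, and counting intervals could not be computed. In miR-483 replicate 1, 12.8% of rows were at 0, against 1.38% to 3.01% in the other libraries. The endothelial identity of the cells was checked on 12 markers, all of which were tested. Their summed level was 2400 to 2421 FPKM in the miR-483 libraries and 1485 to 1747 FPKM in the 8OH-G miR-483 libraries, and 7 of the 12 fell in a limma fit that called 20.4% of all tested genes lower. Rows were found for 7 of 10 mural and fibroblast markers, 3 of 10 leukocyte markers, 1 of 8 epithelial markers and 0 of 7 erythroid markers, and the rest were not analysed here. Mural markers summed to 620 to 842 and 826 to 1019 FPKM, nearly all of it from RGS5 (means of 712 and 890 FPKM, a name on several rows), with ACTA2 at 1.85 and 1.82 FPKM and COL3A1 lower, at 2.33 and 1.26 FPKM. Leukocyte markers summed to 14.3 to 17.8 and 6.79 to 8.05 FPKM, with CD68 falling from 11.9 to 7.15 FPKM and LYZ from 4.03 to 0.109 FPKM, the latter above 1 FPKM only with miR-483. The epithelial marker KRT19 lay at 3.99 to 5.06 and 4.88 to 7.24 FPKM. The part of these shifts in the results below was not tested, and fewer cells of a type and less RNA per cell cannot be told apart in such bulk samples.

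With 8OH-G miR-483, 6 of the 10 genes were lower (FOXO3, FOXO4, TSC22D3, PIK3IP1, TXNIP and CCNG2), 2 were higher (FOXO1 and GADD45A), BCL6 was not called and IRS2 was below the level needed for testing. Calls are limma tests on log2(FPKM + 1) over 12216 genes that reached 1 FPKM in at least 3 libraries, with a Benjamini-Hochberg adjusted p under 0.05. Against the background, 55.4% of all tested genes were called, 20.4% lower and 35.0% higher. The median log2 fold change was -0.56 over the 9 tested genes of the set and 0.10 over all tested genes. TXNIP reached 1 FPKM only in the miR-483 libraries, so it could enter the test only by differing, and these counts are therefore a description. In 9 of the 10 genes the values of the 2 groups did not overlap, which held for 63.3% of all tested genes (39.7% with the 8OH-G group above and 23.6% with it below). TSC22D3, PIK3IP1 and TXNIP were called and lower by at least 1 log2, as were 2.60% of tested genes, with FOXO4 just short of that size, and GADD45A was called and higher by as much, as were 5.39%.

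**Figure D1:**
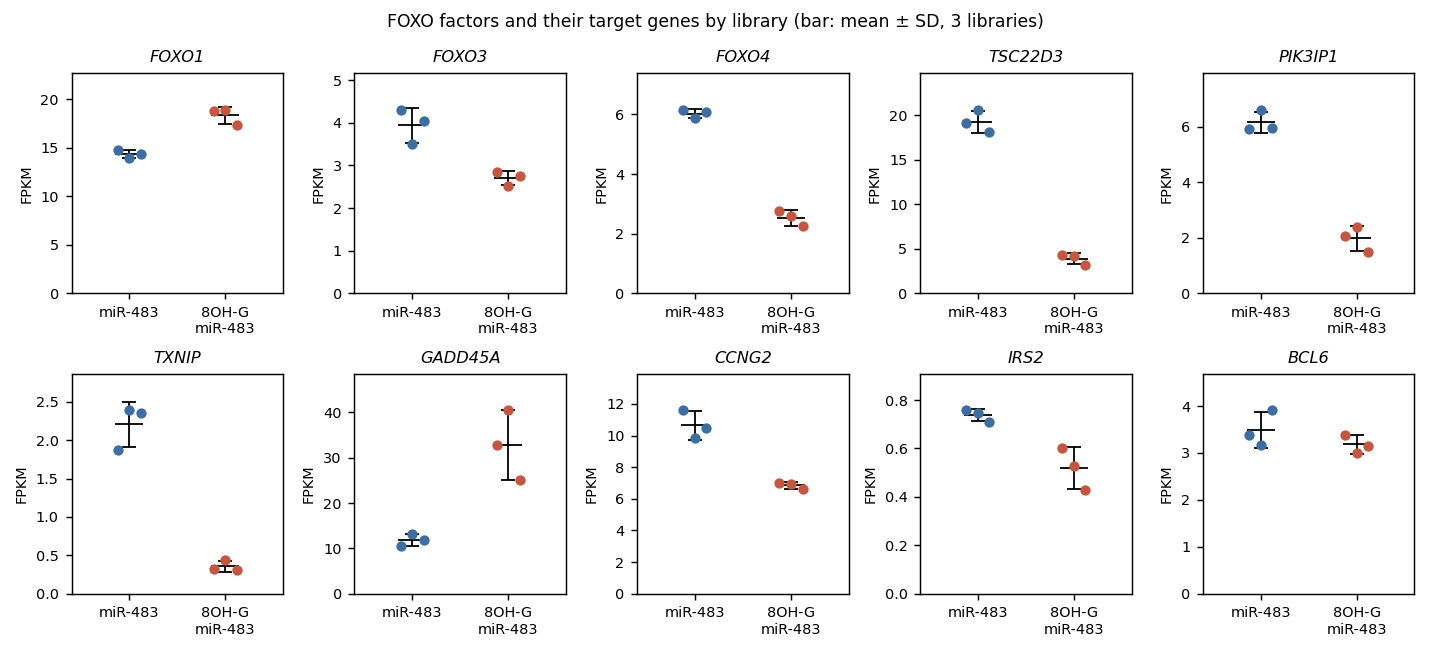
FPKM of the 10 genes in each of 6 libraries, 3 per group, with a vertical axis from 0 in each panel; points are libraries, long bars the mean and short bars the SD. The groups overlap only for BCL6, and only FOXO1 and GADD45A are higher with 8OH-G miR-483.

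FOXO1 was the most abundant of the 3 factors, and it was the only one that rose. Its level was 14.8, 13.9 and 14.4 FPKM in miR-483 replicates 1, 2 and 3 and 18.8, 18.9 and 17.3 FPKM in the 8OH-G miR-483 replicates. Every 8OH-G library was thus above every miR-483 library, by a modest margin. The log2 fold change was 0.33 (SE 0.0662, limma adjusted p = 0.00293), from means of 14.4 ± 0.440 to 18.3 ± 0.869 FPKM (SD, n = 3 libraries per group throughout). After median-ratio scaling, which moved the median fold change of all genes by -0.10, the change of FOXO1 was 0.22 (adjusted p = 0.0193).

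FOXO4, a smaller relative that responds to AKT in the same way, fell furthest among the factors. It stood at 6.15, 5.87 and 6.07 FPKM with miR-483 and at 2.76, 2.59 and 2.25 FPKM with 8OH-G miR-483. The spread within each group was small beside the gap between them. The mean was 2.38-fold lower, and the fitted log2 difference was -1.0 (SE 0.0795, limma adjusted p = 1.82e-05). FOXO3, the third factor, fell from 4.30, 3.50 and 4.03 FPKM to 2.85, 2.52 and 2.75 FPKM. Its groups did not overlap either, with a 1.46-fold lower mean and a fitted log2 difference of -0.41 (SE 0.0870, limma adjusted p = 0.00383). FOXO3 and FOXO1 have near-identical pseudogene copies, so their levels are uncertain where reads could be shared.

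Because FPKM is scaled per length, the levels of the 3 factors can be set side by side within a library. As deposited, their summed level was 24.3 ± 0.984 FPKM with miR-483 and 23.6 ± 1.09 FPKM with 8OH-G miR-483. The libraries of the 2 groups overlapped (23.3 to 25.2 and 22.3 to 24.4 FPKM). Median-ratio scaling lowered the log2 fold changes of FOXO1, FOXO3 and FOXO4 to 0.22, -0.50 and -1.09. The sum was not computed on that scale, so the overlap holds only for the deposited values. The make-up of the summed level differed. FOXO1 held 58.6%, 59.8% and 58.7% of it in the miR-483 libraries and 77.0%, 78.7% and 77.6% in the 8OH-G miR-483 libraries. FOXO4 went from 24.8% ± 0.440 to 10.7% ± 0.630 and FOXO3 from 16.2% ± 1.05 to 11.5% ± 0.922. The order with miR-483 was FOXO1, FOXO4, FOXO3, each separated from the next in all libraries. With 8OH-G miR-483, FOXO3 and FOXO4 overlapped, at 2.52 to 2.85 and 2.25 to 2.76 FPKM.

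**Figure D2:**
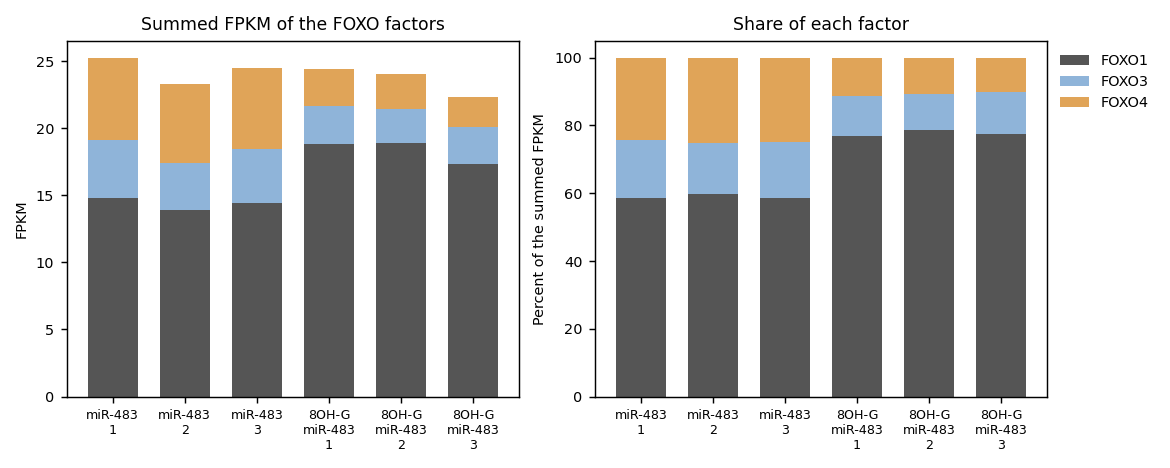
Levels of FOXO1, FOXO3 and FOXO4 in each of the 6 libraries, as stacked FPKM (left) and as percent of their sum (right). As deposited, the sum lies between 22.3 and 25.2 FPKM in every library, while the share of FOXO1 is 58.6% to 59.8% with miR-483 and 77.0% to 78.7% with 8OH-G miR-483.

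TSC22D3, a leucine zipper protein that restrains NF-κB and AP-1 and is also a classic glucocorticoid-induced gene, had the largest fold change of the set on the log2(FPKM + 1) scale. Its values were 19.1, 20.6 and 18.1 FPKM with miR-483 and 4.35, 4.18 and 3.20 FPKM with 8OH-G miR-483. The highest 8OH-G library was far below the lowest miR-483 library. The mean was 4.93-fold lower, and the log2 fold change of -2.05 (SE 0.103, limma adjusted p = 2.14e-06) ranked 111 by size among the 12216 tested genes.

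PIK3IP1, a membrane protein that binds PI3-kinase and inhibits it, went from 5.91, 6.60 and 5.94 FPKM to 2.05, 2.39 and 1.5 FPKM. All 8OH-G libraries were lower, with a 3.11-fold lower mean and a log2 fold change of -1.27 (SE 0.115, limma adjusted p = 3.60e-05). IRS2, the adaptor that links insulin and IGF receptors to PI3-kinase, was the least abundant gene of the set in the miR-483 group. It had 0.758, 0.748 and 0.710 FPKM with miR-483 and 0.600, 0.529 and 0.428 FPKM with 8OH-G miR-483. The groups did not overlap, but no library reached 1 FPKM, so it was not tested in the main fit. With no filter on low values, its log2 fold change of -0.20 had an adjusted p of 0.0645 in limma and did not pass.

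TXNIP, an alpha-arrestin that inhibits thioredoxin and removes glucose transporters from the membrane, was at 1.87, 2.39 and 2.36 FPKM with miR-483 and at 0.320, 0.437 and 0.309 FPKM with 8OH-G miR-483. Its mean was 6.20-fold lower, the largest ratio of means in the set, at a low level in both groups. The fitted difference on the log2(FPKM + 1) scale, where changes of weakly expressed genes look smaller than they are, was -1.24 (SE 0.0964, limma adjusted p = 1.60e-05), and with a pseudocount of 0.1 it was -2.34.

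The members that act on the cell cycle and stress moved in opposite directions. CCNG2, an unconventional cyclin that is raised in resting cells and slows cycling, was at 11.6, 9.82 and 10.5 FPKM with miR-483 and at 7.02, 6.93 and 6.62 FPKM with 8OH-G miR-483. Its groups did not overlap, with a log2 fold change of -0.56 (SE 0.0766, limma adjusted p = 0.000339). GADD45A, which binds PCNA and stress kinase activators and is also a p53 target, rose from 10.6, 13.2 and 11.9 FPKM to 32.8, 40.5 and 25.0 FPKM. Its 8OH-G libraries were the most widely spread in FPKM of any gene in the set, yet the lowest of them was above every miR-483 library. The mean was 2.75-fold higher, and the fitted log2 difference was 1.36 (SE 0.159, limma adjusted p = 0.000160). BCL6, a zinc finger repressor, was at 3.38, 3.17 and 3.91 FPKM with miR-483 and at 3.39, 3.00 and 3.15 FPKM with 8OH-G miR-483. These values overlapped, and the log2 fold change of -0.10 had a 95% interval of -0.30 to 0.10 (adjusted p = 0.353).

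**Figure D3:**
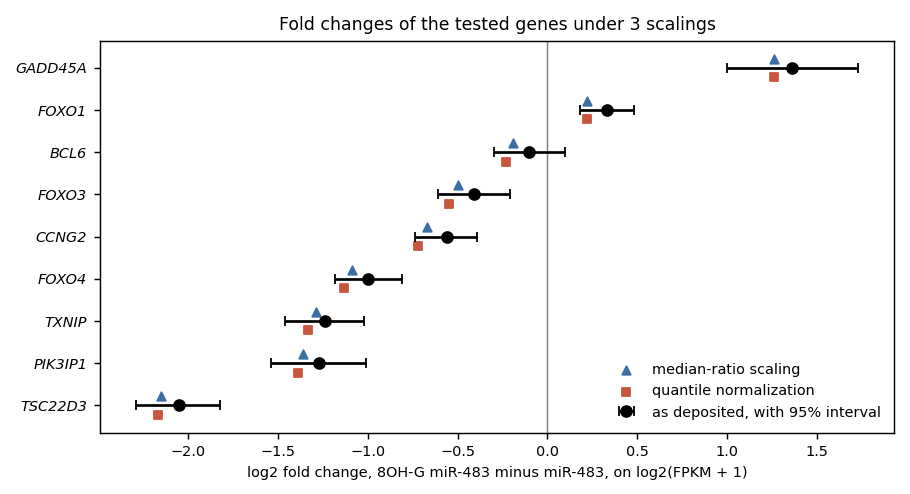
Log2 fold change of the 9 tested genes on the log2(FPKM + 1) scale, 8OH-G miR-483 minus miR-483; circles with 95% intervals use the values as deposited, triangles median-ratio scaling and squares quantile normalization. Under both scalings the fold change of each of the 9 genes is lower than as deposited, by differing amounts, and each keeps its sign.

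Relatives of the target genes were set beside them. All alpha-arrestin genes that could be tested fell with TXNIP. ARRDC2 had 19.2, 20.3 and 20.0 FPKM with miR-483 and 6.85, 7.02 and 5.52 FPKM with 8OH-G miR-483, a log2 fold change of -1.49 (limma adjusted p = 4.70e-06). ARRDC3, an adaptor for ubiquitin ligases that targets receptors for degradation, fell from 12.5 ± 1.07 to 4.74 ± 0.436 FPKM and ARRDC1 from 21.6 ± 1.29 to 11.5 ± 0.754 FPKM. ARRDC4 and ARRDC5 were not analysed here. In the list of TXNIP relatives, partners and regulators, 3 of 10 genes rose and 4 fell, against 35.0% and 20.4% of all tested genes. Its median log2 fold change was 0.10, the same as over all genes. The thioredoxin reductases TXNRD2 (23.6 to 43.1 FPKM) and TXNRD1 (58.2 to 121 FPKM) and MLX (15.0 to 19.3 FPKM), the dimer partner of MondoA, rose. The glucose transporter gene SLC2A1 fell from 20.3 to 11.6 FPKM, and thioredoxin itself (TXN) had 85.5 and 97.8 FPKM and was not called (adjusted p = 0.0698).

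In the TSC22 family the genes differed in direction. TSC22D1 fell from 23.1 ± 0.592 to 17.7 ± 1.12 FPKM and TSC22D4 from 85.0 ± 3.22 to 68.3 ± 6.24 FPKM, both by less than TSC22D3, while TSC22D2 rose from 3.90 ± 0.252 to 6.53 ± 0.464 FPKM (limma adjusted p = 0.000225). GADD45B, a stress-induced relative of GADD45A, fell from 14.7 ± 0.888 to 10 ± 0.583 FPKM, against the rise of GADD45A. GADD45G stayed below 0.5 FPKM in every library and was not tested. CCNG1, the closest relative of CCNG2 and a p53 target, was at 54.2 ± 2.62 and 48.7 ± 1.73 FPKM and was not called as deposited (adjusted p = 0.0843), but was lower after median-ratio scaling (0.00952). BCL6B, the endothelial relative of BCL6, had 68.8 ± 1.16 and 60.5 ± 4.76 FPKM with the same outcome (0.0595 as deposited and 0.00734 after that scaling). It also passed without 8OH-G miR-483 replicate 2 (0.0491). Over the 19 tested relatives and partners of TSC22D3, GADD45A, CCNG2 and BCL6, 5 were higher and 6 lower in the values as deposited. Of all tested genes, 35.0% were higher and 20.4% lower as deposited. In this list 3 were higher and 9 lower once libraries were scaled by median ratio. Its median log2 fold change was 0.01 as deposited. PCNA, the replication clamp that GADD45A binds, rose from 28.9 to 77.5 FPKM and the ubiquitin ligase scaffold CUL3 from 11.9 to 15.1 FPKM. The BCL6 corepressor relative BCORL1 fell from 4.34 to 2.61 FPKM.

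**Figure D4:**
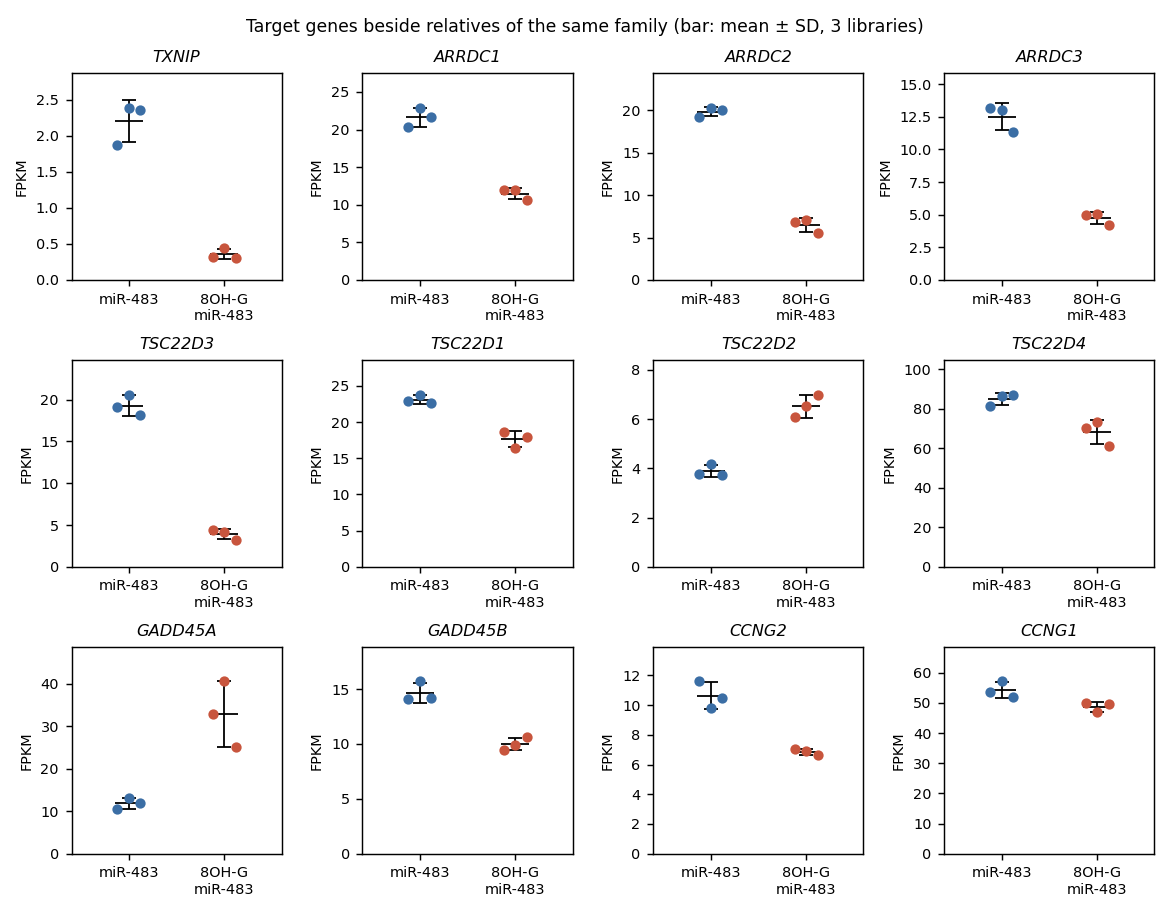
FPKM of TXNIP, TSC22D3, GADD45A and CCNG2 beside relatives of the same gene family in each of 6 libraries, with axes from 0; points are libraries, long bars the mean and short bars the SD. All 4 alpha-arrestins (TXNIP and ARRDC1 to ARRDC3) are lower with 8OH-G miR-483, whereas GADD45A and GADD45B go in opposite directions.

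A wider list of 52 genes reported as FOXO-induced was set beside the 7 targets. Of its 42 tested genes, 23 fell, 11 rose and 8 were not called, with a median log2 fold change of -0.25. Among all tested genes, 20.4% fell and 35.0% rose. Of these, FBXO32 and INSR, both lower, and IL7R, higher, reached 1 FPKM only in the group where they were high. On the median-ratio scale 26 were lower and 9 higher. KLF2, the flow-induced factor of quiescent endothelium, fell from 174 ± 3.14 to 14.0 ± 2.47 FPKM, the mTORC1 inhibitor DDIT4 (REDD1) from 38.3 ± 3.40 to 13.6 ± 2.15 FPKM, the autophagy kinase gene ULK1 from 21.1 ± 0.911 to 10.5 ± 0.775 FPKM and the death ligand gene TNFSF10 (TRAIL) from 26.7 ± 2.28 to 6.38 ± 1.63 FPKM. In the other direction, the pseudokinase gene TRIB1 went from 2.08 ± 0.125 to 6.05 ± 0.214 FPKM, the mitochondrial peroxidase gene PRDX3 from 41.3 ± 1.39 to 70.8 ± 1.34 FPKM, the TEK ligand gene ANGPT2 from 18.3 ± 2.91 to 72.9 ± 13.6 FPKM and the KIT ligand gene KITLG from 1.55 ± 0.134 to 8.10 ± 2.35 FPKM. ANGPT2 is a well-known FOXO1 target in endothelium, and it rose while most of the list fell. The CDK inhibitor gene CDKN1B, another classic FOXO target, had 11.7 and 12.8 FPKM and was not called (limma adjusted p = 0.164).

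Of 7 tested cell-cycle and growth genes listed as FOXO-repressed, 6 rose and 1 fell, with a median log2 fold change of 1.30. Over all tested genes, 35.0% rose and 20.4% fell. Whether FOXO proteins hold down or induce PLK1 and CCNB1, which are in this list, is not settled. MYC rose from 25.3, 27.1 and 26.2 FPKM to 47.5, 49.8 and 51.3 FPKM (limma adjusted p = 1.03e-05), and cyclin D1 (CCND1) from 38.4, 39.5 and 40.8 FPKM to 107, 99.2 and 134 FPKM (1.11e-05). The mitotic genes PLK1 (7.0 to 39.3 FPKM) and CCNB1 (9.0 to 46.7 FPKM) also rose, as did FOXM1 (16.6 ± 1.95 to 42.5 ± 4.70 FPKM), the proliferation-linked forkhead factor that recognises similar sites. ID1, an inhibitor of differentiation factors, fell from 181 ± 7.03 to 45.8 ± 4.11 FPKM. Cyclin D2 (CCND2) stayed below 0.5 FPKM and was not tested. MXI1, a MYC antagonist induced by FOXO1 in endothelium, went from 5.37 ± 0.378 to 4.05 ± 0.535 FPKM (adjusted p = 0.0163, but 0.0556 without miR-483 replicate 1).

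The genes of the kinase pathway above FOXO were called at shares near those of all tested genes. Of 31 tested genes of insulin and PI3K-AKT input, 11 rose, 8 fell and 12 were not called, with a median log2 fold change of 0.11, while 35.0% of all tested genes rose and 20.4% fell. INSR, 1 of the 8, reached 1 FPKM only with miR-483. On the median-ratio scale 9 were higher and 10 lower. SGK1, a kinase that phosphorylates FOXO proteins much as AKT does, rose from 22.1 ± 1.23 to 67.4 ± 11.7 FPKM, by 1.56 on the log2 scale (limma adjusted p = 1.39e-05). TRIB1, which is in this list too, MLST8 (18.4 to 26.8 FPKM), a subunit of both mTOR complexes, and the PI3-kinase regulatory subunit gene PIK3R1 (3.72 to 5.15 FPKM) rose. TRIB2, a pseudokinase that can repress FOXO3, fell from 7.31 to 3.52 FPKM, the mTORC1 inhibitor TSC2 from 38.4 to 22.6 FPKM, the lipid phosphatase gene INPP4B from 3.67 to 1.75 FPKM and the receptor gene IGF1R from 8.66 to 5.89 FPKM. IRS1 was not analysed here.

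Of 34 tested genes for FOXO modifiers and binding partners, 18 were higher and 4 lower in the deposited values. Once libraries were scaled by median ratio, 13 were higher and 9 lower, so the split depends on the scaling. As deposited, 35.0% of all tested genes were higher and 20.4% lower. The kinase gene CDK1 (6.15 to 33.7 FPKM), the methyltransferase gene PRMT1 (79.9 to 130 FPKM), SKP2 (3.86 to 9.49 FPKM), a ubiquitin ligase subunit that marks FOXO1 for degradation, and the exportin gene XPO1 (36.4 to 58.4 FPKM) rose. IKBKB, a kinase that can phosphorylate FOXO3, fell from 35.3 to 17.5 FPKM and the AMP kinase subunit gene PRKAA2 from 1.19 to 0.554 FPKM. PRKAA2 reached 1 FPKM only in the miR-483 libraries, so, like TXNIP, it could enter the test only by being lower. The deacetylase gene SIRT3 (6.11 to 4.58 FPKM) and the acetyltransferase gene KAT2B (5.07 to 3.99 FPKM) were the other lower calls. SIRT3 lost its call on leaving out any 1 of miR-483 replicates 1 and 2 and 8OH-G replicate 3 (adjusted p up to 0.0612), and KAT2B on leaving out any 1 of miR-483 replicates 1 and 3 and 8OH-G replicates 2 and 3 (up to 0.122). Without either miR-483 replicate 1 or 8OH-G replicate 3, 2 lower genes were left.

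Among 13 tested forkhead genes outside the FOXO group, 4 were higher and 3 lower, near the shares over all tested genes (35.0% and 20.4%), and the numbers were 3 and 4 on the median-ratio scale. Besides FOXM1, the endothelial and mesenchymal factors FOXF1 (4.06 to 7.58 FPKM) and FOXC2 (19.2 to 25.8 FPKM) rose, and FOXJ3 (10.3 to 12.1 FPKM) was called only as deposited (0.159 after median-ratio scaling) and was lost on leaving out any 1 of miR-483 replicates 2 and 3 and 8OH-G replicate 1 (up to 0.0602). FOXP1, a repressor with a role in endothelial quiescence, fell from 23.4 to 13.1 FPKM and FOXC1 from 7.43 to 5.03 FPKM. FOXJ2 (5.90 to 4.57 FPKM) was the other lower call and was lost on leaving out any 1 of miR-483 replicates 1 and 3 and 8OH-G replicates 1 and 2 (up to 0.0734). FOXO6 was not analysed here.

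Since TSC22D3 is also induced by the glucocorticoid receptor, genes of that response were read beside it. Of 12 tested genes, TSC22D3 and the receptor gene included, 5 rose and 6 fell, with a median log2 fold change of -0.18. The shares over all tested genes were 35.0% and 20.4%. FKBP5, a chaperone that is a standard readout of the receptor, rose from 3.11 to 7.93 FPKM, the receptor gene NR3C1 from 4.16 to 7.13 FPKM, the lipase inhibitor gene ANGPTL4 from 15.6 to 22.2 FPKM and the metallothionein gene MT2A, which has close relatives that could share reads, from 84.0 to 366 FPKM. SGK1, described above, belongs to this group as well. KLF9 fell from 5.34 to 1.72 FPKM, NFKBIA from 70.7 to 24.6 FPKM and CEBPD from 1.32 to 0.335 FPKM. CEBPD too reached 1 FPKM only in the miR-483 libraries and could be tested only by being lower. PER1 had 3.24 and 3.31 FPKM and was not called (limma adjusted p = 0.801). Other genes of this list than TSC22D3 and the receptor gene changed in both directions. The part of the receptor in the fall of TSC22D3 was not tested.

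**Figure D5:**
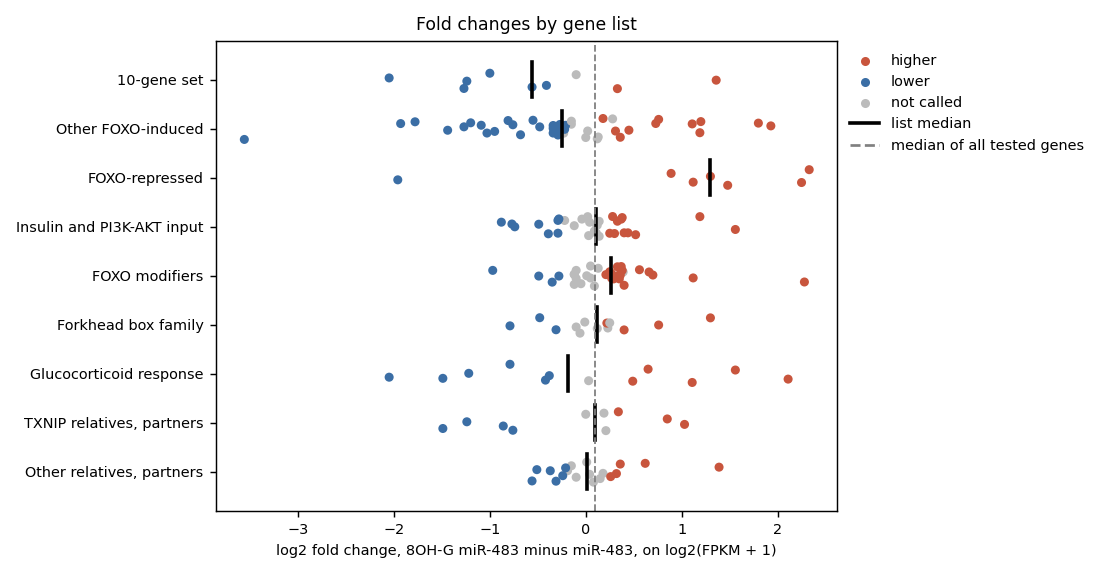
Log2 fold change on the log2(FPKM + 1) scale of each tested gene in the 10-gene set and in 8 related lists; points are genes coloured by call, black bars list medians and the dashed line the median of all tested genes, 0.10. The medians of the 10-gene set (-0.56) and of other FOXO-induced genes (-0.25) lie below that line. That of genes listed as FOXO-repressed (1.30) lies above it.

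Finally, the genes whose levels followed each factor most closely were listed, as a description over 6 libraries that mainly reflects the difference between the groups. For FOXO1 they were OCIAD2 (Pearson's r = 0.9970) and MYH10 (0.9955), for FOXO3 SP8 (0.9979) and PPM1D (0.9969), and for FOXO4 TECPR1 and PNPLA6 (both 0.9997). With so few libraries such values are common: 674 genes had a correlation above 0.95 with FOXO1, 540 with FOXO3 and 1274 with FOXO4.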

How the data were processed

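The 6 HUVEC libraries were sequenced as RNA. Per the submitters' processing notes the authors used hg19 as build and the tools cutadapt, STAR, HTSeq and DESeq2, with no versions or order given. What the authors deposited was read as FPKM, from the size of the column totals, because no unit is named per the file headers. Values below 0.3 FPKM showed no clear steps of whole reads between miR-483 replicates 2 and 3, the only libraries compared. Of 1726 low genes, 19.6% fitted ratios of small whole numbers within 0.02 log2 under the best depth ratio. Under the median one of 201 it was 16.9%. Steps at larger read numbers could not be seen this way, and no count test was run. Names on several rows (748) were left out. The 12216 genes reaching 1 FPKM in 3 or more libraries were fitted with limma 3.58.1 in R 4.3.3 on log2(FPKM + 1), with trend and robust shrinkage, group as the only term and Benjamini-Hochberg adjustment over all genes. The procedure was tested on simulated data. The strand setting and the handling of multi-mapped reads, not given in the sources used here, could shift genes with close copies.

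The 10 genes and the lists were chosen with earlier results of these data known. Named beside them were up to 4 list genes per direction with the smallest p, the relatives of the 10 genes, and a few chosen after their values were seen (CDKN1B, TXN, PER1 and NR3C1). Y-linked genes were not considered for the correlations. Promoter windows came from RefSeq (GRCh38.p14) and were matched by symbol for 9 of the 10 genes. The mature miR-483 sequence was not used here, and some list genes are not reported here. Alternatives covered pseudocounts of 0.1 and 0.5, filters, scaling, a replicate block, repeated names, variance shrinkage and each library left out.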

Additional observations from a re-analysis of the deposited data

How the results depend on the processing

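The 8 calls among the 10 genes kept their direction and their side of the threshold under pseudocounts of 0.1 and 0.5, no filter, median-ratio scaling, quantile normalization, repeated names added, plain variance shrinkage and each library left out, and BCL6 stayed uncalled. Its adjusted p came closest to the threshold after quantile normalization (0.0519). FOXO1 was the smallest call, with log2 fold changes of 0.22 to 0.37 and adjusted p of 0.00265 to 0.0238. A filter on a mean of at least 5 FPKM, which tests fewer genes (8227), left 2 lower genes of the 10, 5 higher among other FOXO-induced genes and 5 lower in the PI3K-AKT list. Leaving out each library gave 18 to 23 lower and 9 to 10 higher FOXO-induced genes, 6 to 9 lower and 9 to 12 higher PI3K-AKT genes and, over all genes, 2087 to 2375 lower and 3772 to 4104 higher. Genes called higher made up 63.2% of all calls as deposited, 50% with libraries scaled by median ratio and 49.0% with quantile normalization. Whether the replicate numbers pair the samples is not known. Deviations of same-numbered libraries correlated at 0.02, 0.34 and 0.01, and not every library correlated best with its own number. So few libraries cannot settle this. With the number as a replicate block, 4635 genes were higher and 2677 lower, and the 10 genes had 2 higher and 6 lower calls as before. Unknown depth limits the precision at low levels, such as those of IRS2 and TXNIP.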

Other observations

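The letters GTAAACA were also read across all tested genes that had a promoter window, a comparison chosen after the windows of the 10 genes had been seen. Of 301 such genes with the letters in at least 1 window, 31.6% were lower and 29.6% higher with 8OH-G miR-483, against 19.5% and 37.6% of 8202 genes without them. A log2 fold change of -1 or less, as rounded to 2 decimals, was called in 5.98% and 2.24%. The 18 genes with the letters at that size included FOXO4, TSC22D3, PIK3IP1 and TXNIP, whose windows had prompted the comparison. FOXO4 was counted only through the rounding. The letters CAAAACA gave 22.5% lower with and 19.8% without, and the E-box CACGTG 17.2% and 20.3%. Genes with GTAAACA held less G and C over all their windows together (median per gene 60.1%, against 65.1%). Among genes at or below 60.1% the lower share was 29.1% of 151 genes with the letters and 16.9% of 2318 without. Above it the shares were 34% of 150 and 20.5% of 5884. Among genes with a single window they were 39.5% of 129 and 18.3% of 5870. The genes that had prompted the comparison were not removed from these groups, and the part of base composition was not tested. Besides FOXO4, TSC22D3, PIK3IP1 and TXNIP, 14 tested genes of the related and marker lists held the letters, of which 7 were lower, 4 higher and 3 not called. Log2 fold changes on the log2(FPKM + 1) scale follow in brackets. The lower genes were ARRDC3 (-1.24), YPEL3 (-1.78), MXI1 (-0.34), HBP1 (-0.68), FOXP1 (-0.79), TRIB2 (-0.88) and TEK (-1.80). The higher genes were BCL2L11 (0.45), PIK3CA (0.30), CDK1 (2.28) and NR3C1 (0.65). STK11 (-0.12), PPP2R5C (0.04) and ACTA2 (-0.01) were not called. These are counts over genes of the same 6 libraries, with no test, and they do not show which factor, if any, acts at these letters.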
